A study of Mus musculus with 8 samples.

Results

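The genes described here encode the Hedgehog receptor, co-receptors, effectors and feedback targets: Ptch1, Smo, Gas1, Boc, Cdon, Gli1, Gli2, Gli3 and Hhip. Members were all probe sets that the platform annotation gives to one of these 9 genes alone, 24 of the 45037 probe sets measured. Each gene had between 1 and 4 probe sets, and the one with the highest mean log2 signal over all arrays is called its lead probe set. The samples were cells sorted from mouse skin in telogen, when follicles rest, and each was hybridised to an Affymetrix Mouse Genome 430 2.0 array, 8 in all. The cells were positive for keratin 15-driven GFP and for α6-integrin, and the surface protein CD34 divided them into CD34-negative cells, labelled hair germ, and CD34-positive cells, labelled bulge. The 4 groups, with 2 arrays each, were Runx1 iTG hair germ, wild-type (WT) hair germ, Runx1 iTG bulge and WT bulge. Runx1 iTG mice carry a Tet-on transgene for the transcription factor Runx1. All mice, WT included, had doxycycline in their food at 1 g per kg for 1 day, which the labels describe as a means to repress H2BGFP. The promoter that drives the transgene and the number of animals behind each array are not given in the sources used here. The age was postnatal day 20 for 6 samples and day 21 for replicate 2 of either Runx1 iTG group.

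Hedgehog ligands bind the membrane receptor Ptch1, which otherwise holds the membrane protein Smo inactive. Gas1, Boc and Cdon are co-receptors that help the ligand to bind Ptch1. Once Smo is active at the primary cilium, Gli2 acts mainly as an activator of transcription and Gli3 mainly as a repressor, while Gli1, Ptch1 and Hhip are themselves transcribed in response to the pathway. In hair follicles the pathway is known for driving growth of the new hair, and Gli1 marks stem cells of the bulge and of the secondary germ.

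Most of these genes had a lower signal in CD34-negative than in CD34-positive cells. Averaged over genotypes, 18 of the 24 probe sets were lower in hair germ than in bulge and 0 were higher (limma, Benjamini-Hochberg adjusted p under 0.05), while 7.39% of all probe sets were called lower and 6.63% higher. The lead probe sets of 7 of the 9 genes passed: Gli1, Gli2, Gas1, Hhip, Boc, Ptch1 and Gli3. Those of Smo and Cdon did not. Among the lead probe sets of all 18193 genes, 8.46% were lower and 8.55% higher. The median difference over the 24 probe sets was -2.11 on the log2 scale, against -0.14 over all probe sets. In bulk samples, fewer cells that transcribe a gene and less RNA per cell cannot be told apart. No probe set of the 9 genes passed between Runx1 iTG and WT cells, where few of all probe sets did: 4 in hair germ, 2 in bulge and 17 averaged over populations.

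Both labels were set against their genes first. Runx1 signal was higher in Runx1 iTG than in WT cells by 4.67 in hair germ (adjusted p = 0.000251) and by 4.40 in bulge (adjusted p = 0.000435), as log2 differences in the limma fit. Cd34, which encodes the surface protein of the sort, averaged a scaled signal of 15.9 in hair germ and 7944 in bulge. Of the genes behind the other sort criteria, Krt15 was lower in hair germ (17120 in hair germ and 31207 in bulge, limma adjusted p = 0.0057). Itga6, which encodes α6-integrin, did not pass (6175 in hair germ and 6351 in bulge). The hair germ label was only partly matched by its markers in mean scaled signal: Edar was higher in hair germ (979 and 23.97 in bulge), but Lgr5 (336 in hair germ and 8233 in bulge), Lef1 (180 in hair germ and 808 in bulge) and Cdh3 (679 in hair germ and 1289 in bulge) were lower. Of the 4 suprabasal and upper follicle markers, the upper follicle genes Krt79 and Lrig1 were higher in hair germ (Krt79 at 9814 in hair germ and 1087 in bulge, Lrig1 at 8707 in hair germ and 3404 in bulge), while the suprabasal keratins Krt10 (10533 in hair germ and 19974 in bulge) and Krt1 (5344 in hair germ and 11706 in bulge) were lower. "Hair germ" is therefore used below only as the label of the CD34-negative sort. Xist and 3 Y-linked genes showed that replicate 1 of every group carried male-type and replicate 2 female-type signals, so the spread within each group includes sex.

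Ptch1 is both the receptor and a target of the pathway. Its lead probe set read 1232 and 1524 in Runx1 iTG hair germ, 984 and 1290 in WT hair germ, 4708 and 3137 in Runx1 iTG bulge, and 5094 and 3189 in WT bulge (linear signal after scaling, replicates 1 and 2). Every hair germ array lay below every bulge array. The mean was 1258 ± 222 in hair germ and 4032 ± 1016 in bulge (SD, n = 4 each), a log2 difference of -1.66 (SE 0.22, 95% interval -2.15 to -1.18, limma adjusted p = 0.000884). The second probe set, 1450824_at, was also lower in hair germ, by 1.33 on the log2 scale (247 in hair germ and 618 in bulge on average). The third, 1439663_at, passed as well (adjusted p = 0.0398), but its arrays overlapped: it ranged between 10.1 and 106 in hair germ and between 65.3 and 1063 in bulge. The 250 bases before the annotated start of Ptch1 are shown because this gene is a standard readout of the pathway (RefSeq, GRCm38.p6, chr13:63565736-63565985, minus strand, printed 5′ to 3′ on the gene's strand).
Ptch1: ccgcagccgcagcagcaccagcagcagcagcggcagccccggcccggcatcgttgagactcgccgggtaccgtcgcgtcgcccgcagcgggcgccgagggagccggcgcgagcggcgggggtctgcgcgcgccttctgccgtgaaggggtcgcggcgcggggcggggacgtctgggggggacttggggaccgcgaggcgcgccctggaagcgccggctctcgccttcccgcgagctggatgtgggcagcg
They hold no match to the GLI core ACCACCC, to the GLI consensus GACCACCCA, which contains that core, or to the RUNX core TGTGGT on either strand.

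Smo, the transducer that Ptch1 inhibits, did not pass. Its lead probe set read 4634 and 3752 in Runx1 iTG hair germ, 3031 and 3500 in WT hair germ, 4618 and 3860 in Runx1 iTG bulge, and 4494 and 3795 in WT bulge. The hair germ and bulge arrays overlapped, and the difference was -0.18 (95% interval -0.53 to 0.17, limma adjusted p = 0.526). The other 2 probe sets of Smo differed by 0.06 and -0.56 between hair germ and bulge, neither past the threshold.

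Gas1, a co-receptor anchored in the membrane, gave the lowest adjusted p among the 9 lead probe sets. It read 1285 and 1386 in Runx1 iTG hair germ, 2064 and 1828 in WT hair germ, 15067 and 8935 in Runx1 iTG bulge, and 10274 and 11308 in WT bulge. The mean was 1641 ± 368 in hair germ and 11396 ± 2633 in bulge (SD, n = 4 each), with no overlap. The difference was -2.80 on the log2 scale (SE 0.19, limma adjusted p = 2.258e-05), or 6.95-fold lower. Both other probe sets of Gas1 were lower in hair germ too, by 2.74 and 2.41 as sizes of the log2 difference, again with no overlap.

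Boc, a co-receptor of the immunoglobulin superfamily, read 891 and 971 in Runx1 iTG hair germ, 811 and 908 in WT hair germ, 1593 and 4811 in Runx1 iTG bulge, and 2549 and 4914 in WT bulge. The hair germ arrays lay close together, while in both bulge groups replicate 2 was the higher array. Boc was 3.50-fold lower in hair germ (log2 difference -1.81, SE 0.33, limma adjusted p = 0.00579). The probe set 1426869_at gave -1.71. The third, 1427517_at, was below the background limit of 31.1 on 7 of 8 arrays and did not pass (adjusted p = 0.0512).

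Cdon, the paralogue of Boc, did not pass. Its lead probe set read 583 and 835 in Runx1 iTG hair germ, 764 and 1180 in WT hair germ, 430 and 1254 in Runx1 iTG bulge, and 2053 and 2396 in WT bulge. WT bulge lay above the other 3 groups, which overlapped. Averaged over genotypes the difference of hair germ from bulge was -0.65 (95% interval -1.37 to 0.07, limma adjusted p = 0.233). One array decided that call: without replicate 1 of Runx1 iTG bulge, the difference was -1.04 (adjusted p = 0.0293). The probe set 1434957_at gave -0.38 (adjusted p = 0.488).

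**Figure D1:**
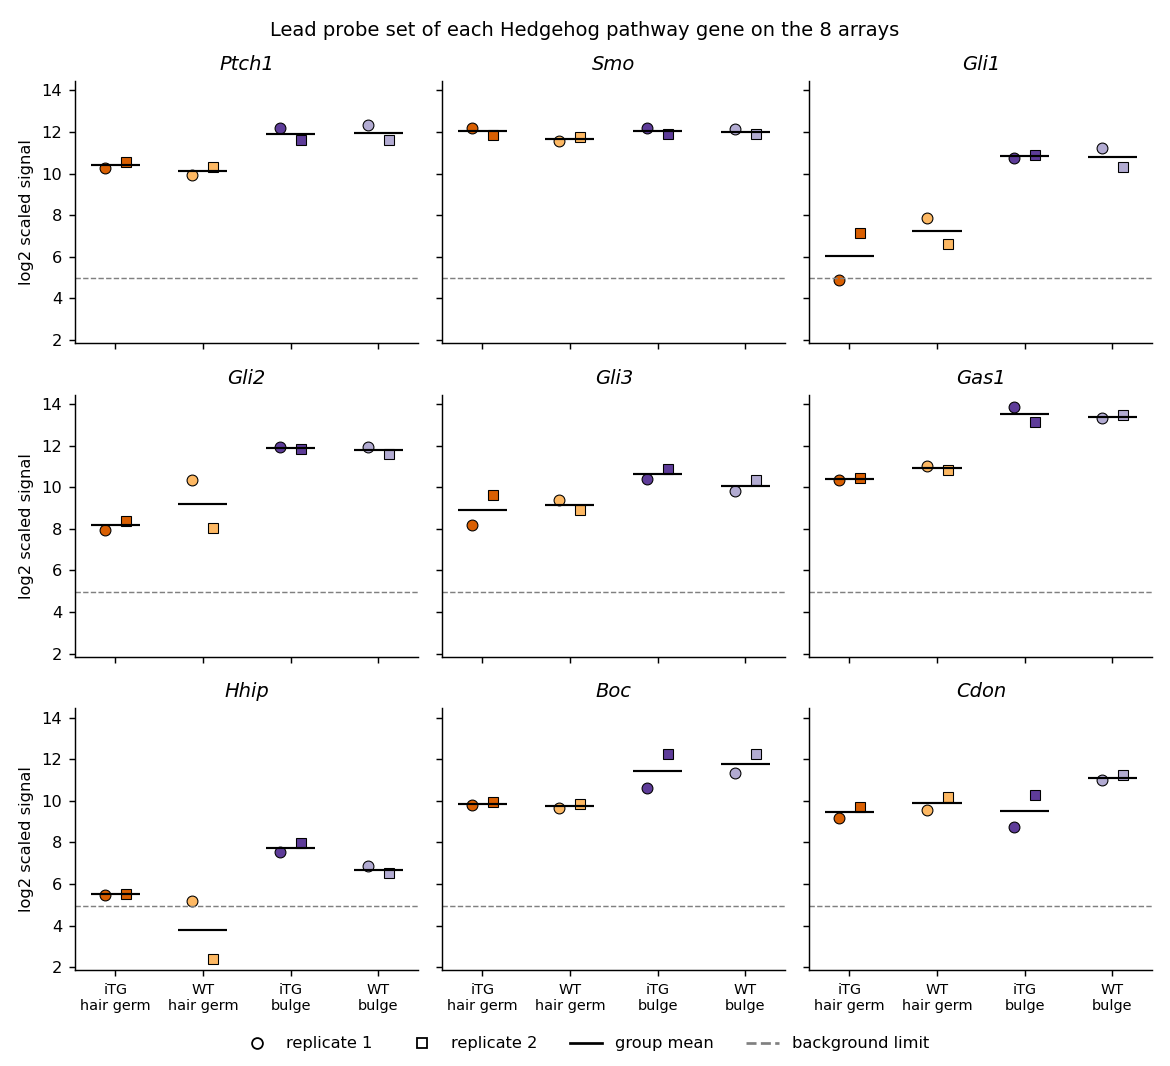
Log2 scaled signal (vertical axis) of the lead probe set of each of the 9 genes on the 8 arrays, by group; circles are replicate 1, squares replicate 2, bars group means and the dashed line the background limit of 31.1. Gli1, Gli2, Gas1 and Ptch1 sit lower on all hair germ arrays than on all bulge arrays, while Smo is level.

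Gli1, the transcription factor whose own transcription reports pathway activity, showed the largest difference of the 9 lead probe sets. Its single probe set read 29.6 and 142 in Runx1 iTG hair germ, 232 and 98.9 in WT hair germ, 1750 and 1887 in Runx1 iTG bulge, and 2422 and 1291 in WT bulge. Every hair germ array lay below every bulge array, and 1 hair germ array was below background. The mean was 126 ± 84.9 in hair germ and 1837 ± 466 in bulge (SD, n = 4 each). The fit on log2 values gave a difference of -4.18 (SE 0.48, 95% interval -5.25 to -3.10, limma adjusted p = 0.000441). That log2 difference is 18.1-fold lower, a larger fold than the ratio of the linear means.

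Gli2, the main activator, read 245 and 337 in Runx1 iTG hair germ, 1318 and 260 in WT hair germ, 3936 and 3707 in Runx1 iTG bulge, and 3927 and 3121 in WT bulge. One WT hair germ array stood well above the other 3, and still below every bulge array. Gli2 was 8.91-fold lower in hair germ (limma adjusted p = 0.000942), and the probe set 1446086_s_at gave a log2 difference of -2.89. Gli3, the main repressor, differed less. Its lead probe set read 294 and 782 in Runx1 iTG hair germ, 661 and 480 in WT hair germ, 1330 and 1878 in Runx1 iTG bulge, and 894 and 1311 in WT bulge. The groups did not overlap, and the difference was -1.33 (SE 0.31, limma adjusted p = 0.0194). The other 2 probe sets of Gli3 gave -1.29 and -0.96, both past the threshold. The call on the lead probe set was lost without replicate 2 of WT bulge (adjusted p = 0.104), of WT hair germ (0.0958) or of Runx1 iTG bulge (0.0884), and without replicate 1 of Runx1 iTG hair germ (0.0543).

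Promoter windows of 250 bases were found in RefSeq (GRCm38.p6) for 7 of the 9 genes, and those of Gli2 and Gli3 are shown because they are the members whose windows hold one of the motifs searched on both strands. The Gli2 window (chr1:119053620-119053869, minus strand) holds the GLI core, read on the gene's strand as GGGTGGT and printed in capitals, starting 205 bases before the start. The Gli3 window (chr13:15463473-15463722, plus strand) holds the RUNX core as ACCACA, in capitals, 120 bases before the start. Both are printed 5′ to 3′ on the gene's strand.
Gli2: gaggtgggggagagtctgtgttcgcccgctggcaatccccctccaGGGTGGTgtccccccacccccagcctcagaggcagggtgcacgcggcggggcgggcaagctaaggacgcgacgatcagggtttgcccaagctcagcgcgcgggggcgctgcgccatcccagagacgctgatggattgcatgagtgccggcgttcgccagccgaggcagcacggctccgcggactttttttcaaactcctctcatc
Gli3: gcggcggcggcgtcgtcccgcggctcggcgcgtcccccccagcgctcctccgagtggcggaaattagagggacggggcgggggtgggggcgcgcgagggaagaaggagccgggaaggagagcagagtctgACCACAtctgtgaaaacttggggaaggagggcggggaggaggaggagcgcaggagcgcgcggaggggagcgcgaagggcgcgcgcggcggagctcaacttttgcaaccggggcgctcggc
Among 32851 promoter windows of this length, 3.92% held the GLI core, 0.225% the consensus and 14.0% the RUNX core, whose ACCACA form shares 5 letters, ACCAC, with the GLI core. The windows of Smo, Gas1, Hhip and Cdon held none of these letters. A match is a description of the sequence only.

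Hhip, a membrane protein that binds and sequesters the ligands and is induced by the pathway, was the dimmest member. Its lead probe set read 45.0 and 45.6 in Runx1 iTG hair germ, 36.8 and 5.34 in WT hair germ, 184 and 249 in Runx1 iTG bulge, and 117 and 92.1 in WT bulge. All hair germ arrays were lower than all bulge arrays, and the average difference was -2.56 (SE 0.63, limma adjusted p = 0.0230). This call was lost when any one bulge array or any one Runx1 iTG hair germ array was left out, with adjusted p of at most 0.0921. The difference was -3.26 without replicate 1 and -1.87 without replicate 2 of WT hair germ, the array at 5.34. The other 3 probe sets of Hhip were below background on average in hair germ and at least 4.19-fold (1421426_at), 1.11-fold (1437933_at) and 2.82-fold (1438083_at) lower there, taken against the background limit, with limma adjusted p of 0.00386, 0.0285 and 0.00955. The probe set 1437933_at was below background on 7 of 8 arrays, so its bound rests on replicate 2 of WT bulge alone (84.9).

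**Figure D2:**
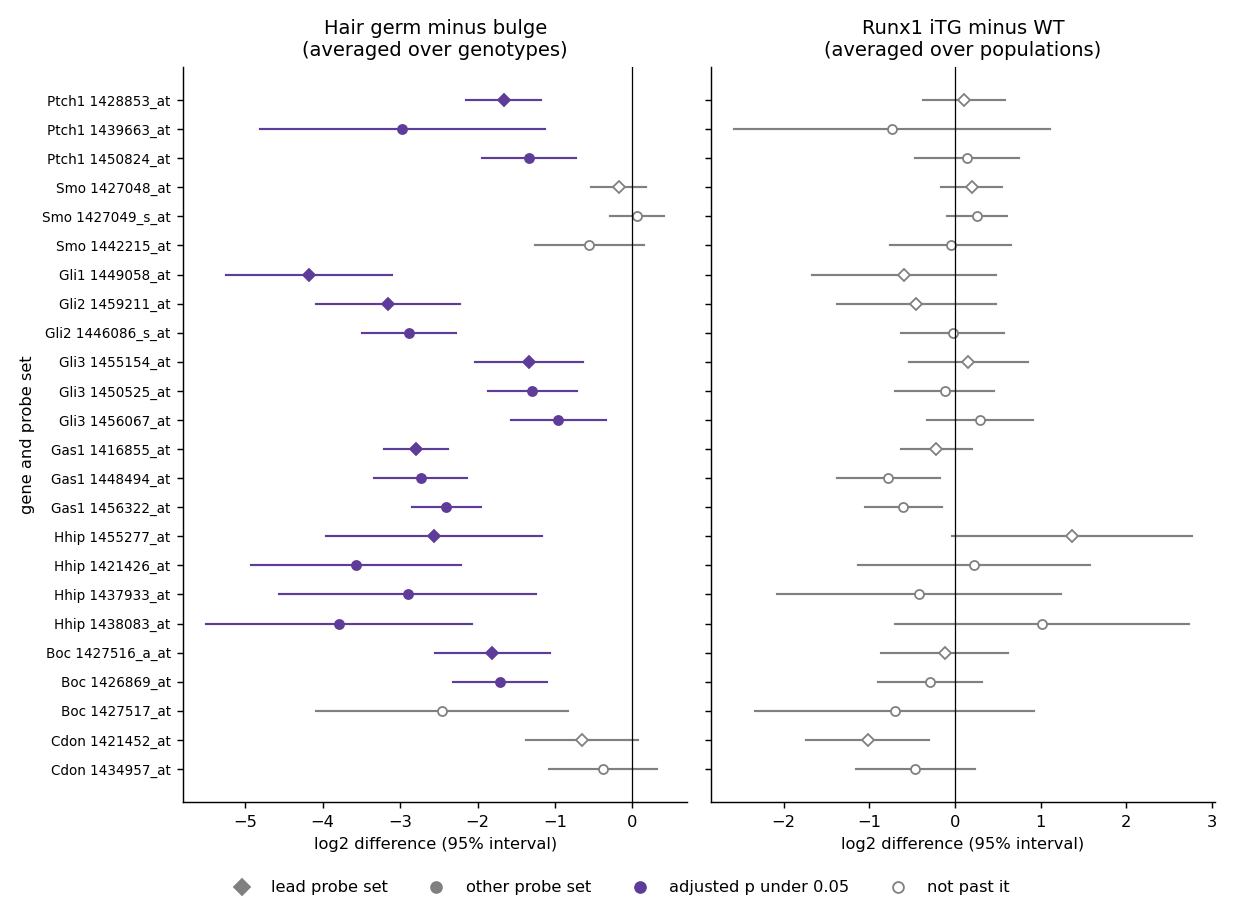
Log2 differences with 95% intervals (horizontal axis) for all 24 probe sets, hair germ minus bulge averaged over genotypes on the left and Runx1 iTG minus WT averaged over populations on the right; diamonds are lead probe sets and filled symbols have an adjusted p under 0.05. On the left 18 symbols are filled, all below 0; on the right none is filled.

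Arrays did not overlap for 17 of the 24 probe sets, all lower in hair germ, against 10.7% of all probe sets in that direction. The count of 18 probe sets was 11 without replicate 2 of WT bulge, and between 13 and 17 when any other array was left out. The lead probe sets of Gas1, Gli1 and Ptch1 passed in all 17 alternatives.

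Of 6 fibroblast markers, the collagen genes Col1a1, Col1a2 and Col3a1 were lower in hair germ together with these genes, and Dcn, Lum and Pdgfra did not pass. In each population 4 of the 6 were above background, and their summed signal, mostly Col1a1, lay between 250 and 700 in hair germ and between 4832 and 9159 in bulge. Col1a1 averaged 207 in hair germ and 5492 in bulge, and Col1a2 averaged 85.2 in hair germ and 1541 in bulge. Pdgfra averaged 60.8 in hair germ and 26.0 in bulge, below background there (log2 difference 1.88, limma adjusted p = 0.198). Dcn averaged 36.9 in hair germ and 49.8 in bulge, and Lum was below background in both. Markers of dermal papilla and sheath summed to between 111 and 201 in hair germ and between 510 and 1438 in bulge. In bulge this sum was mostly Crabp1, the only one of them that passed (29.4 in hair germ and 800 in bulge on average). Alx4 (48.2 in hair germ and 52.6 in bulge) and Rspo3 (31.7 in hair germ and 31.0 in bulge) were level. Corin, Sox2 and Itga8 were below background on average in both. Schwann cell, melanocyte, immune and endothelial sums overlapped between the populations. The melanocyte gene Dct alone among these markers passed, at 14.4 in hair germ and 71.9 in bulge (limma adjusted p = 0.0493). Among basal keratinocyte markers Krt5, Itgb4 and Trp63 were lower in hair germ, and Krt14 and Itga6 did not pass. The part of fibroblast or dermal papilla RNA in the differences of the Hedgehog genes was not tested.

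Within each genotype nearly all differences had the same direction, with fewer calls, since each comparison rests on 2 arrays against 2. Smo 1427049_s_at, 1 of the 24, was higher in hair germ in Runx1 iTG cells by 0.18 and did not pass. It read 1383 and 1400 there, with 1130 and 1331 in Runx1 iTG bulge. In Runx1 iTG cells 12 of the 24 probe sets were lower in hair germ and 0 higher, where 3.9% of all probe sets were lower and 3.08% higher. In WT cells 10 were lower and 0 higher, where 2.59% of all were lower and 2.02% higher. The median difference of the 24 was -1.70 in Runx1 iTG cells, where all probe sets had -0.11, and -1.94 in WT cells, where all had -0.13.

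Ptch1, Gli1, Gli2 and Gas1 passed with their lead probe sets in both genotypes. Gli1 differed by -4.81 in Runx1 iTG cells (limma adjusted p = 0.00321) and by -3.54 in WT cells (0.0181). Its size rested on single hair germ arrays: in Runx1 iTG cells it was -3.68 without replicate 1, the array below background, and -5.94 without replicate 2, and in WT cells it was -4.16 without replicate 1 and -2.93 without replicate 2. Gas1 differed by -3.12 in Runx1 iTG cells (limma adjusted p = 0.000280) and by -2.47 in WT cells (0.000915), and it was the member that passed whichever array was left out in both. Gli2 differed by -3.73 in Runx1 iTG cells and by -2.58 in WT cells, and Ptch1 by -1.49 in Runx1 iTG cells and by -1.84 in WT cells. The WT call on Gli2 held in 1 of 8 fits that each left out 1 array, the one without replicate 1 of WT hair germ, where the difference was -3.75. Without replicate 2 of WT hair germ it was -1.41 (adjusted p = 0.0957).

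Gli3 passed in Runx1 iTG cells (-1.72, limma adjusted p = 0.0470, lost in 7 of 8 fits with 1 array left out, all but that without replicate 2 of Runx1 iTG hair germ, with -1.01 without replicate 1 and -2.43 without replicate 2 of that group) and had -0.94 in WT cells (adjusted p = 0.301). Boc had -1.57 in Runx1 iTG cells (adjusted p = 0.0814) and passed in WT cells (-2.04, limma adjusted p = 0.0384). Hhip passed in neither, with -2.24 in Runx1 iTG cells and -2.89 in WT cells, the second at least 3.36-fold against background. Cdon had -0.08 in Runx1 iTG cells and -1.22 in WT cells, and Smo had -0.02 in Runx1 iTG cells and -0.34 in WT cells, none past the threshold. A call in one genotype and not in the other does not by itself show a difference between them. For the interaction 0 of 24 probe sets passed in limma, as did 0 of all 45037. At an unadjusted p under 0.05 it was again 0 of 24, where 4.2% of all probe sets lay below that value. The interaction estimates of the lead probe sets ran from -1.26 to 1.15 on the log2 scale.

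The calls within a genotype also depended on single arrays. Leaving out an array of a compared group leaves 1 array in it. Calls over all probe sets fell in each of the fits below too, so the fall was not particular to these genes. In Runx1 iTG cells the count of 12 became 5 without replicate 1 of Runx1 iTG hair germ, and 7 without replicate 1 or without replicate 2 of Runx1 iTG bulge. In WT cells the count of 10 became 2 and 3 without replicates 1 and 2 of WT bulge, and 5 and 3 without replicates 1 and 2 of WT hair germ. Leaving out either WT hair germ array or replicate 1 of WT bulge ended the WT call on Ptch1. Leaving out any one of the 4 WT arrays ended the WT call on Gli1, and the WT call on Boc held only without replicate 1 or without replicate 2 of Runx1 iTG bulge. In Runx1 iTG cells the call on Ptch1 ended without replicate 1 of bulge or without either hair germ array, and that on Gli2 without either bulge array or without replicate 1 of hair germ. Boc passed in Runx1 iTG cells without replicate 1 of Runx1 iTG bulge (adjusted p = 0.0218), and Hhip passed in WT cells without replicate 1 of WT hair germ (0.0350).

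**Figure D3:**
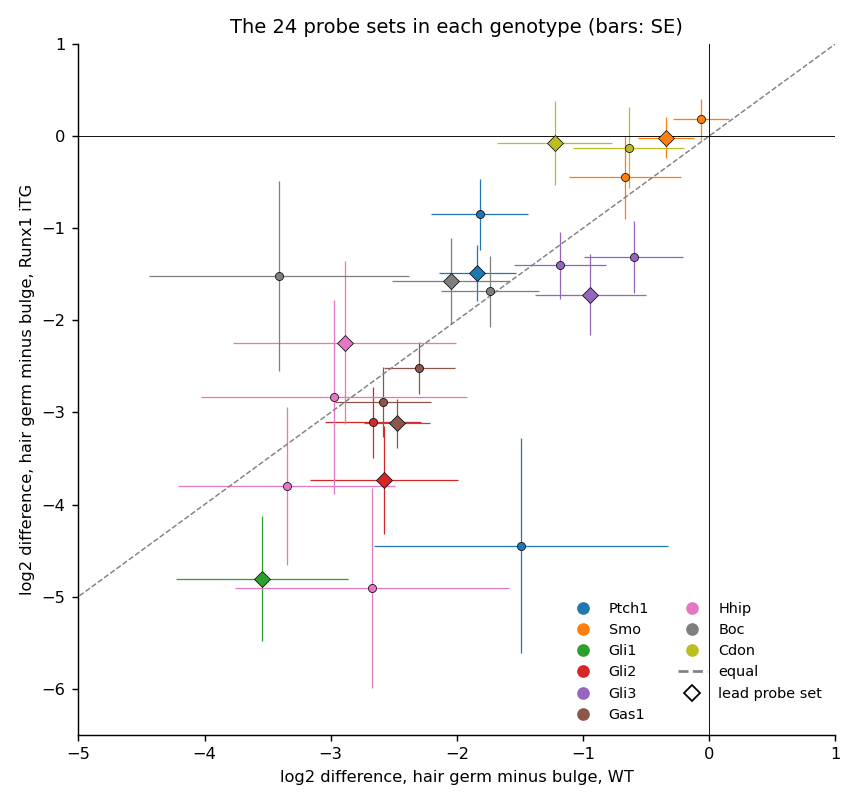
Log2 difference of hair germ minus bulge in Runx1 iTG cells (vertical axis) against the same in WT cells (horizontal axis) for the 24 probe sets, with SE bars, diamonds for lead probe sets and a dashed line of equal differences. Of the lead probe sets, Gli1, Gli2 and Gas1 lie low in both genotypes, Smo lies near 0 in both, and Cdon is at -0.08 in Runx1 iTG and -1.22 in WT cells. The lowest point in Runx1 iTG cells, at -4.91, is an Hhip probe set that is not the lead, 1438083_at. Its arrays in Runx1 iTG hair germ, 8.03 and 1.03, were both below background and the second was raised to the floor. The size of that difference therefore depends on the floor.

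The transgene comparison asks whether raised Runx1 changed the pathway. In hair germ 0 of the 24 probe sets passed between Runx1 iTG and WT cells in limma, with 2 at an unadjusted p under 0.05, where 0.00888% and 6.29% of all probe sets did. In bulge 0 passed, with 1 at an unadjusted p under 0.05, where 0.00444% and 5.67% of all did. Averaged over populations 0 passed, with 3 at an unadjusted p under 0.05, where 0.0377% and 7.46% did. With 2 arrays a group the median SE over all probe sets was 0.60 in log2 units, and intervals are given for the members below.

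Cdon had the lowest unadjusted p. It averaged 842 ± 582 in Runx1 iTG bulge and 2225 ± 243 in WT bulge (SD, n = 2 each), a log2 difference of -1.59 (95% interval -2.61 to -0.58, limma adjusted p = 0.763). In hair germ it differed by -0.45 (95% interval -1.46 to 0.57). The Runx1 iTG bulge arrays, 430 and 1254, lay further apart than the WT bulge arrays. The 2 probe sets of Gas1 besides the lead differed by -0.93 and -0.71 in hair germ (limma adjusted p = 0.753 and 0.745), and the lead by -0.54 (95% interval -1.13 to 0.04).

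The transcribed readouts of the pathway did not pass either. In hair germ Gli1 differed by -1.22 between Runx1 iTG and WT cells (95% interval -2.74 to 0.29), Hhip by 1.69 (-0.29 to 3.67) and Ptch1 by 0.28 (-0.40 to 0.96). The sizes for Gli1 and Hhip depended on single arrays below background, Gli1 at 29.6 on replicate 1 of Runx1 iTG and Hhip at 5.34 on replicate 2 of WT. Over the alternatives they ran from -2.36 to -0.09 for Gli1 and from 0.30 to 3.08 for Hhip. In bulge Gli1 differed by 0.04 (-1.48 to 1.56), Hhip by 1.05 (-0.93 to 3.02) and Ptch1 by -0.07 (-0.75 to 0.61). Smo had the narrowest intervals, 0.36 (-0.14 to 0.86) in hair germ and 0.03 (-0.47 to 0.53) in bulge.

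Genes around the 9 members were read from 4 lists. No gene of the ligand list passed between hair germ and bulge (0 of 9), beside 8.46% of all genes lower and 8.55% higher. For a list of 9 genes, 0 calls lie near those shares. The 3 ligands were near background: Shh averaged 28.2 in hair germ and 35.8 in bulge, Ihh 29.0 in hair germ and 46.2 in bulge, and Dhh 56.5 in hair germ and 62.5 in bulge. For ligand release, Disp1, which frees the lipid-bound ligand, had 0.68 (limma adjusted p = 0.138) and the secreted carrier Scube2 had 0.64 (adjusted p = 0.151).

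Of 18 measured genes that act between Smo and Gli, 5 were lower in hair germ and 0 higher, beside 8.46% and 8.55% of all genes. Kif7, the ciliary kinesin that regulates Gli proteins, was 5.68-fold lower, with 157 and 184 in Runx1 iTG hair germ, 192 and 131 in WT hair germ, 1090 and 1011 in Runx1 iTG bulge, and 849 and 807 in WT bulge (limma adjusted p = 0.000108). Gpr161, a ciliary receptor that restrains the pathway, had -1.50 (adjusted p = 0.00410), and Evc, part of the Smo-binding complex at the base of the cilium, had -1.59 (0.00600). Iqce and Evc2, of the same complex, had -0.86 and -1.54, and each passed in only 1 of 8 fits with 1 array left out. Evc2 had -0.93 without replicate 1 and -2.15 without replicate 2 of WT bulge. Sufu, which binds and restrains Gli proteins, had 0.16 (adjusted p = 0.722).

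Of 13 measured genes of the primary cilium, 4 were lower in hair germ and 0 higher, beside the same 8.46% and 8.55% of all genes: Tulp3 (-1.82), which carries receptors into the cilium, Tctn1 (-1.34), of the transition zone, Dync2li1 (-1.64), of the retrograde motor, and Kif3a (-0.79), of the anterograde motor. Tulp3 and Tctn1 passed in all 8 fits with 1 array left out, Dync2li1 in 5 and Kif3a in 1. The median of the list was -0.74, against -0.09 over the lead probe sets of all genes. The median of the list between Smo and Gli was -0.39, and that of the ligand list -0.42.

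Of 13 measured genes reported elsewhere as Hedgehog targets, 4 were lower in hair germ and 2 higher, again beside 8.46% and 8.55% of all genes. Sfrp1, a secreted Wnt inhibitor, averaged 288 ± 141 in hair germ and 10108 ± 1697 in bulge (SD, n = 4 each), a log2 difference of -5.24. Sox9, a stem cell transcription factor of the follicle, had -1.72, the keratin Krt17 had -1.51 and the survival gene Bcl2 had -1.23. The cell cycle genes Ccnd2 and Foxm1 were higher in hair germ, each by 1.25 on the log2 scale (Ccnd2 at 10609 in hair germ and 4803 in bulge, Foxm1 at 309 in hair germ and 134 in bulge), though in fits with 1 array left out Ccnd2 passed in 4 of 8 and Foxm1 in 1 of 8. Bcl2 and Krt17 lost their calls without replicate 2 of WT hair germ (adjusted p = 0.0563 and 0.0566). Between Runx1 iTG and WT cells, 0 genes of the 4 lists passed in either population, where 0.00888% of all probe sets passed in hair germ and 0.00444% in bulge.

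**Figure D4:**
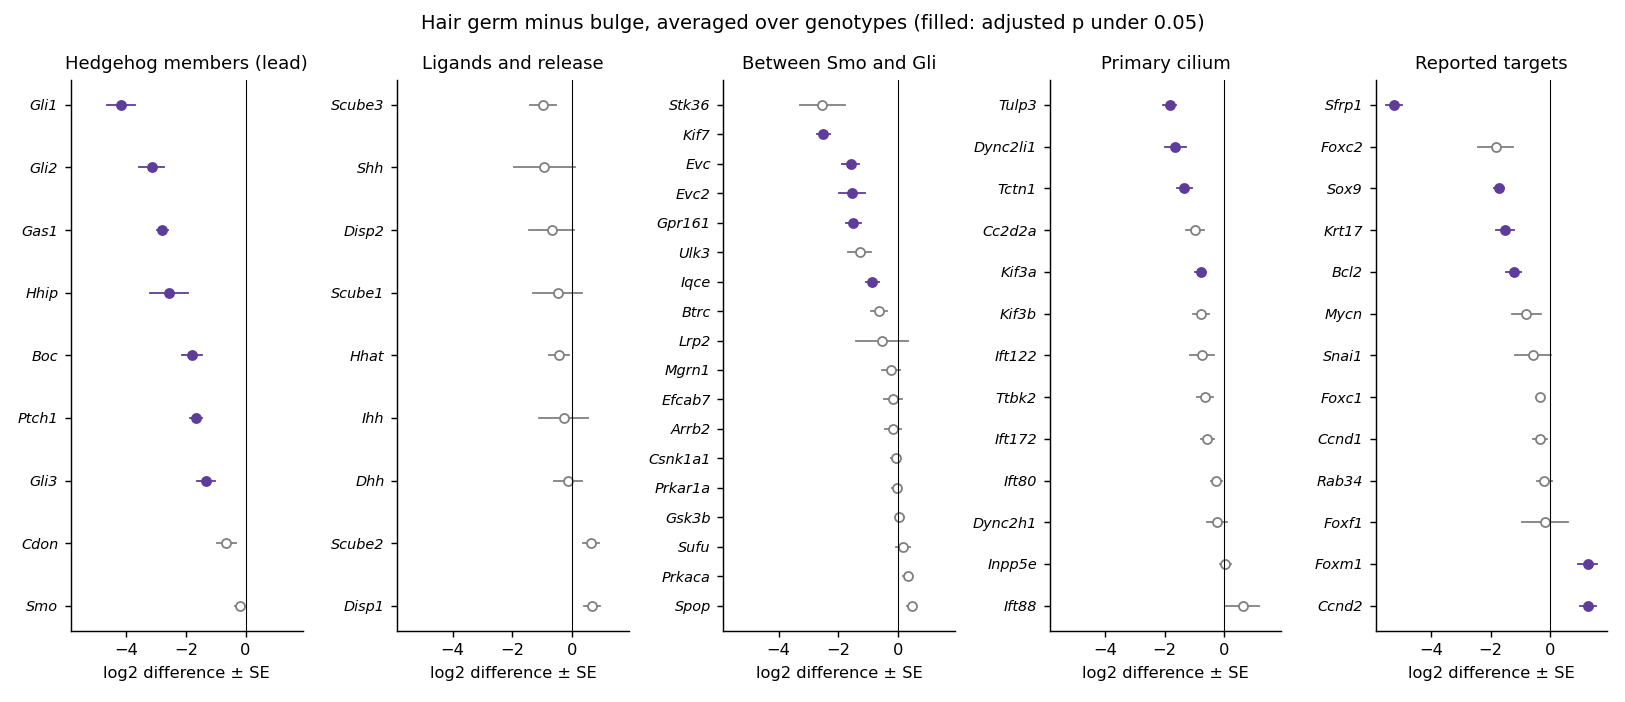
Log2 difference of hair germ minus bulge averaged over genotypes, with SE, for the lead probe set of the 9 genes and of the genes in the 4 lists; filled symbols have an adjusted p under 0.05. The ligand list has no filled symbol, the lists between Smo and Gli and of the cilium have 5 and 4 on the lower side, and the list of reported targets has 4 lower and 2 higher. Of all genes, 8.46% were lower and 8.55% higher.

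Over the 8 arrays, 9905 genes with a mean at or above the median of all probe sets were ranked by Pearson r of log2 signal with a member. The arrays fall into the 2 sorted populations, so any gene that differs between them ranks high, and r is given as a description. For Ptch1 the most alike genes were Hspg2 (r = 0.993), Tbx1 (0.987), Suco (0.983), Crispld1 (0.982) and Ggps1 (0.980). For Gli1 they were Plscr3 (0.997), Ids (0.992), Gfra1 (0.991), S100a6 (0.991) and Pcsk6 (0.991). For Gli2 they were Sgms2 (0.994), Hspb1 (0.986), Hdgfl3 (0.986), Zbtb4 (0.985) and Kctd4 (0.983), and for Gas1 Tubb2b (0.992), Extl3 (0.991), Ecm1 (0.990), Dmpk (0.990) and Eps8 (0.988). Among the members themselves, r with Gli1 was 0.960 for Gli2 (rank 142 of 9905), 0.946 for Gas1 (rank 236), 0.899 for Gli3 (rank 573) and 0.887 for Ptch1 (rank 677). It was 0.797 for Boc, 0.42 for Cdon and 0.192 for Smo.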

How the data were processed

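The authors deposited intensity, in linear units, for 45101 probe sets. Each array had a mean of 500 once its top and bottom 2% were left out; which program made these values is not given in the sources. Per the labels, RNA was amplified with a NuGEN Ovation Pico kit.

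Without the 64 control probe sets, arrays were brought to a shared 75th percentile of 576 and converted to log2 above a floor of 2.41, which replaced 3.48% of values. Background was 31.1, the 95th percentile of 27 bacterial control probe sets; between 69.0% and 77.0% of probe sets per array exceeded it. The number of arrays limits the precision.

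One limma 3.58.1 fit in R 4.3.3 (a mean per group, 8 arrays, intensity trend, 4 residual degrees of freedom) was adjusted over all 45037 probe sets. The fit was tested on simulated data with independent noise, for hair germ minus bulge averaged over genotypes only. The labels call the replicates biological; whether both populations came from the same animals is not given, so comparisons between populations may rest on shared animals. Lead probe sets are given with every array, and up to 4 list genes by unadjusted p, further ones chosen after their values were seen. The members and lists were chosen with earlier results of these data known. Alternatives changed scaling, floor, trend, summarisation, block, age and arrays used.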

Additional observations from a re-analysis of the deposited data

Results flagged for a closer look

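In 3 of 48 groups of 4 arrays (24 probe sets in 2 populations, both genotypes together), 1 array stood far from the others; about 1 in 20 groups is expected to do so by chance. Smo 1427049_s_at read 1331 on replicate 2 of Runx1 iTG bulge, with 1118 to 1130 on the other bulge arrays. Gas1 1448494_at read 3610 on replicate 1 of Runx1 iTG bulge, with 7750 to 8381 on the others. Hhip 1455277_at read 5.342 on replicate 2 of WT hair germ, below background, with 36.78 to 45.56 on the others.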

How the results depend on the processing

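No called difference changed sign under an alternative. Of 63 differences of the lead probe sets, 19 that had not passed did, such as Cdon, hair germ minus bulge in Runx1 iTG cells (from -0.85 to 0.70). So did 18 of 53 for the list genes. The count of probe sets lower in hair germ, averaged over genotypes, was 18. It was 10 without the intensity trend, 10 with only day 20 arrays, 7 of 9 genes with 1 probe set per gene, 7 of 9 with the mean of a gene's probe sets, and 11 to 17 with 1 array left out. In Runx1 iTG cells the count of 12 became 3, 1, 5 of 9, 6 of 9 and 5 to 9 in the same order, and in WT cells the count of 10 became 1, 4, 5 of 9, 4 of 9 and 2 to 9. With day 20 arrays each Runx1 iTG group has 1 array, assumed to vary like the WT groups. With only the groups compared the count was 4 in Runx1 iTG and 5 in WT cells, where 912 and 720 of all probe sets passed. Settings that leave out arrays or probe sets test fewer of them by construction. Without the trend, calls over all probe sets fell from 3142 to 861 in Runx1 iTG cells and from 2078 to 557 in WT cells. With day 20 arrays they fell in both genotypes as well. The cause of the change without the trend was not tested. Over all probe sets the averaged comparison called 6316, against 3276 without the trend and 2125 with day 20 arrays. Gli2, averaged, was lost with day 20 arrays (adjusted p = 0.0555), Boc without the trend (0.0588) and with day 20 arrays (0.0657), Hhip likewise (0.0592 and 0.202), and Gli3 without the trend (0.0982). Quantile normalization moved the median of all probe sets between populations to 0.02 from -0.14, and the member counts to 15 averaged, 10 in Runx1 iTG and 10 in WT cells. The replicate numbers, which coincide with sex, were not shown to pair the samples: correlations of replicate differences between groups lay between -0.055 and 0.116. With the replicate block the counts were 19 averaged, 15 in Runx1 iTG and 10 in WT cells. Between Runx1 iTG and WT cells, and for the interaction, the count was 0 in each alternative.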
